A study of Mus musculus with 9 samples.

Results

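Inhibition of the arginine methyltransferase CARM1 was set against deletion of its gene in mouse embryonic fibroblasts, connective tissue cells taken from embryos. The comparison sets 3 libraries labelled CARM1i against 3 labelled KO, fitted together with the 3 WT libraries of the series, and covers the 14560 of 16428 genes in the table whose mean value over the 9 libraries was at least 10. All 9 libraries came from cells of 1 genotype, CARM1f/f ER-Cre, in which a floxed Carm1 gene is joined with a Cre recombinase that tamoxifen activates. CARM1i cells received 1 uM TP-064, a small molecule inhibitor of CARM1, KO cells received 2 uM 4-OHT (4-hydroxytamoxifen), which activates the recombinase, and WT cells received no treatment. Each treatment lasted 6 days. No group analysed here was given 4-OHT without a floxed gene and none is labelled as vehicle, so 4-OHT and the deletion cannot be told apart, nor can any vehicle and the inhibitor. Whether replicates were separate cultures or embryos is not stated, and p-values therefore reflect the scatter of these 9 libraries alone, which could be technical.

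CARM1, also called PRMT4, transfers methyl groups to arginines of histone H3 and of many other proteins, among them the acetyltransferases CBP and p300, the p160 coactivators, splicing factors and subunits of chromatin remodellers. It was first described as a coactivator of nuclear receptors, and fibroblasts that lack it have served to study its part in estrogen, interferon, NF-kB and p53 responses. An inhibitor that blocks the catalytic site leaves the protein in the cell, where it can still bind its partners, whereas deletion removes both. Neither the protein nor arginine methylation was measured in the data analysed here.

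The libraries held 28657018 to 35842771 reads each. Values are read counts divided by size factors, called normalized read counts here, and a difference is CARM1i minus KO on the log2(value + 1) scale, given ± its standard error. At the edge of the minimum, Rtn4rl2 was just inside with a mean of 10.0 and Gm10509 just outside with 9.99. Fibroblast markers were abundant: 9 of 10 passed the minimum and their summed level was 351100 to 381100 in CARM1i, 346000 to 365100 in KO and 373400 to 383700 in WT. Singly, 6 of the 9 passed an adjusted p of 0.05 as higher in CARM1i than in KO and 1 as lower. The shares over all genes were 12.1% and 11.5%. Against WT 7 fell and 2 rose in KO, beside 20.5% and 21.4% of all genes. Of the macrophage markers 4 of 10 were tested, with sums of 294.5 to 329.1 in CARM1i, 303.6 to 340.5 in KO and 259.3 to 321 in WT, and Ptprc, Itgam and Adgre1 were not among the genes analysed here. Endothelial markers, 4 of 6 tested, summed to 434.6 to 453.5 in CARM1i and 462.6 to 525.2 in KO, and the part of such cells in the results was not tested. The only epithelial marker tested of 6 was Krt18, and the only skeletal muscle marker of 6 was Acta1. No erythroid marker was among the genes analysed.

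In a principal component analysis of the log values the first component carried 42.7% of the variance and ordered the groups, with WT libraries between -25.4 and -22.0, CARM1i libraries between -5.84 and 2.27 and KO libraries between 25.2 and 27.6. The second, with 10.6%, set the CARM1i libraries, at 12.3 to 15.9, apart from both other groups, which lay between -10.7 and -5.14. CARM1i replicate 3 stood apart from its group on the third component, at -19.5 against positive scores for replicates 1 and 2. The third component also split WT, with replicate 3 at 10.3 and replicates 1 and 2 at -8.65 and -5.68. KO replicate 1 stood apart on the fourth, at -22.1 against 9.95 and 12.7. Counts of list members are also given without libraries that moved them by over 1.5 times.

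**Figure D1:**
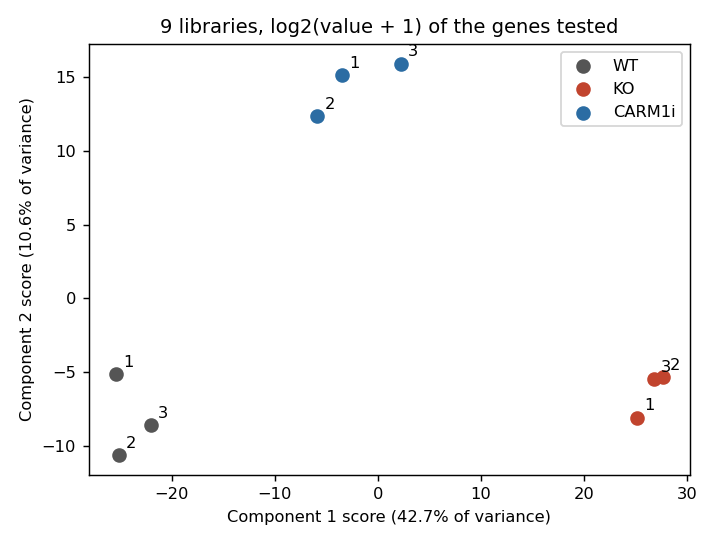
Scores of the 9 libraries on the first principal component (horizontal, 42.7% of variance) and the second (vertical, 10.6%), coloured by group and numbered by replicate. The CARM1i libraries lie between WT and KO on the horizontal axis and above both on the vertical axis.

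Carm1 itself (ENSMUSG00000032185.15; mm10, chromosome 9, 21546894 to 21592623, plus strand) measured 1112, 1072 and 986 in CARM1i, 794, 711 and 769.8 in KO and 1079, 1143 and 1091 in WT. The KO libraries were below all others, and the CARM1i and WT libraries overlapped. The mean was 1057 ± 64.0 in CARM1i (SD, n = 3) and 758 ± 43.0 in KO, a difference of 0.48 ± 0.06 (limma adjusted p = 8.66e-06). CARM1i and WT differed by -0.06 ± 0.06, which limma did not call (adjusted p = 0.496). Values are given per whole gene, so these values do not check the deletion of the floxed part. Of the other 9 arginine methyltransferase genes tested, only Prmt2 was called, at -0.18 ± 0.04 (limma adjusted p = 0.00602), higher in KO. That is near the 11.5% of all genes called higher in KO. Without CARM1i replicate 1, 2 genes of that list, in place of 1, were called higher in CARM1i.

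Between inhibitor and deletion 3436 genes (23.6% of those tested) passed an adjusted p of 0.05 in limma, 1761 (12.1%) higher in CARM1i and 1675 (11.5%) higher in KO. Most differences were small. The median absolute difference over all genes was 0.12, only 349 genes (2.4%) were called with at least 1.5-fold more in CARM1i and 173 (1.19%) with at least 1.5-fold more in KO, and 85 (0.584%) and 49 (0.337%) passed 2-fold. Without CARM1i replicate 3 there were 3682 calls, and without KO replicate 1 there were 2923. Against untreated cells, in the same fit and with the same WT libraries on both sides, 6100 genes (41.9%) were called in KO and 2784 (19.1%) in CARM1i.

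**Figure D2:**
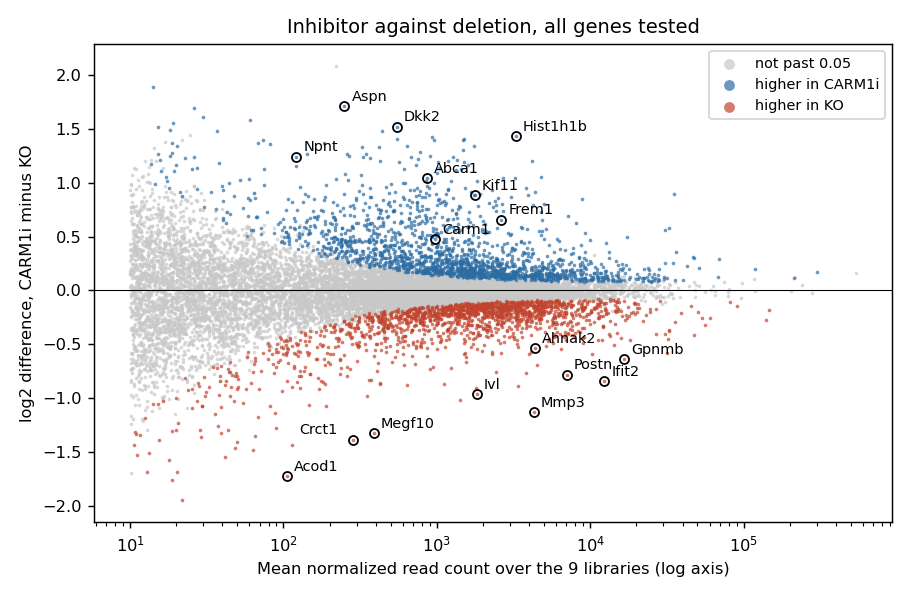
Each point is 1 of the 14560 genes tested: the horizontal axis is its mean normalized read count over the 9 libraries (log axis) and the vertical axis the log2 difference CARM1i minus KO, with genes past an adjusted p of 0.05 in blue (higher in CARM1i) and red (higher in KO). Named genes are circled; Aspn at 1.71 and Acod1 at -1.73 are the outermost of the genes named by size.

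The largest differences each way were named only among called genes with a mean of at least 100 and no overlap of CARM1i and KO. For genes named this way the call and the lack of overlap are therefore no separate evidence. Of the 12 genes named as the largest differences toward CARM1i, 10 were replication-dependent histone genes. The others were Aspn, a small proteoglycan of the extracellular matrix, and Dkk2, a secreted Wnt antagonist. The 12 largest toward KO held 4 genes of the epidermal differentiation cluster or its S100 neighbours (Crct1, Ivl, S100a8 and Lce1g, the last one of several near copies and so uncertain), the matrix metalloproteinases Mmp3 and Mmp10, the itaconate-producing enzyme gene Acod1, the phagocytosis receptor gene Megf10, the synaptic genes Nptx1, Syngr1 and Grm7, and the skeletal actin gene Acta1. Over 33 gene lists, described by counts and medians, the share of members called ran from none to all. These lists were chosen with earlier results of these data known, so their counts are descriptions and not separate evidence.

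**Figure D3:**
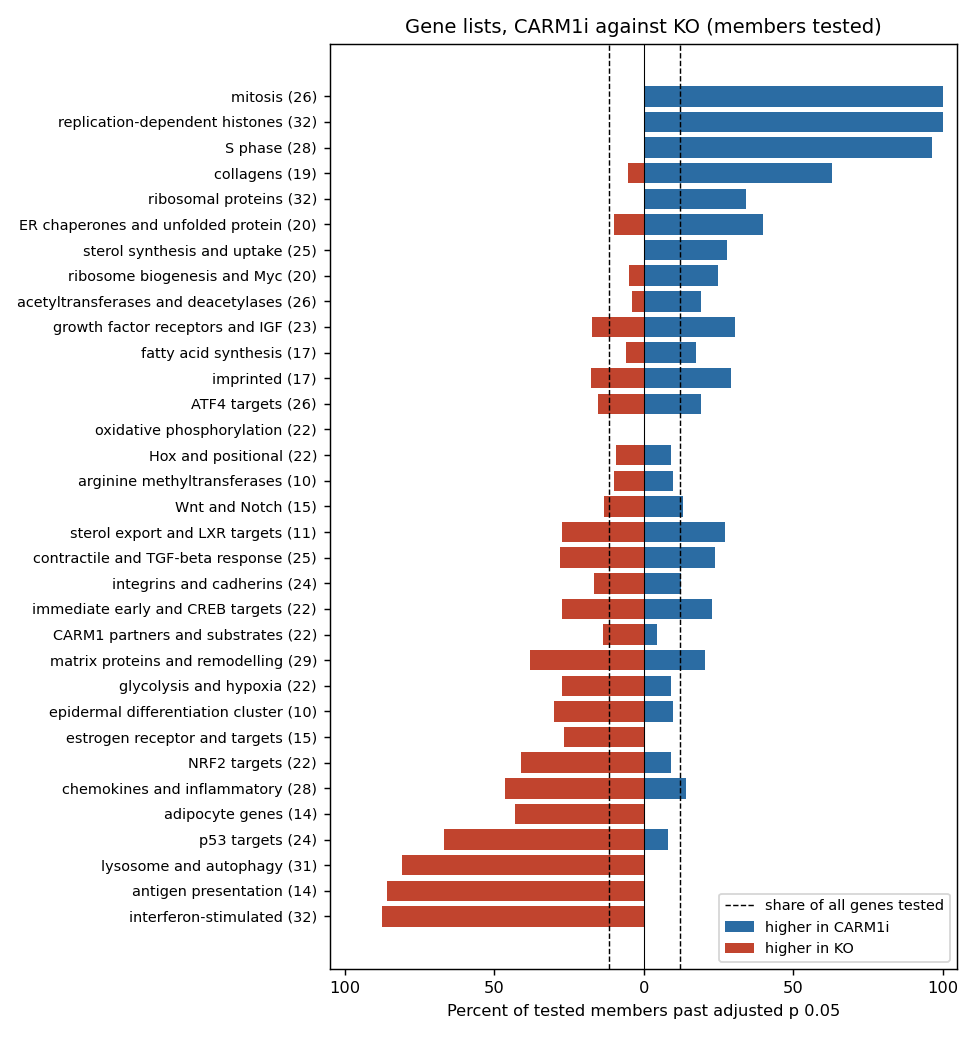
For each of the 33 gene lists, with its number of tested members in brackets, the bar to the right is the percentage of members called higher in CARM1i and the bar to the left the percentage called higher in KO. Dashed lines mark the shares over all genes tested, 12.1% and 11.5%; the 3 cell cycle lists lie at the right and the interferon, antigen presentation and lysosome lists at the left.

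Genes of cell division were below WT in both groups and further below after the deletion than under the inhibitor. All 26 mitosis genes tested were higher in CARM1i than in KO, with a median difference of 0.67, as were 27 of 28 S phase genes (median 0.68) and all 32 replication-dependent histone genes (median 1.19), against 12.1% and a median of -0.002 over all genes. The S phase gene that did not pass was E2f1, a transcription factor of S phase entry, named after its value was seen, at 0.07 ± 0.05. The median mitosis gene was 1.17 below WT in KO and 0.51 below WT in CARM1i, and the median histone gene 1.84 and 0.61 below. Against WT all 26 mitosis and all 32 histone genes fell in both groups, and of the S phase genes 26 fell in KO and 21 in CARM1i, beside 20.5% and 8.59% of all genes that fell in KO and CARM1i. In these bulk samples fewer cycling cells and less RNA per cycling cell cannot be told apart.

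Promoter sequence is shown for a pair of mitosis genes because motifs found in many cell cycle promoters were frequent in their list. The 250 bases before the RefSeq start are printed 5′ to 3′ on the gene's strand (GRCm38.p6), with capitals marking CCAAT or its complement ATTGG, bound by the factor NF-Y, and TTTGAA or its complement TTCAAA, the core of the cell cycle homology region. The Kif11 window is chr19:37376132-37376381 on the plus strand, with 1 CCAAT match 45 bases and 1 TTTGAA match 19 bases before the start. The Top2a window is chr11:99024190-99024439 on the minus strand, with 6 CCAAT matches and 2 TTTGAA matches, the latter 179 and 23 bases before the start.
Kif11: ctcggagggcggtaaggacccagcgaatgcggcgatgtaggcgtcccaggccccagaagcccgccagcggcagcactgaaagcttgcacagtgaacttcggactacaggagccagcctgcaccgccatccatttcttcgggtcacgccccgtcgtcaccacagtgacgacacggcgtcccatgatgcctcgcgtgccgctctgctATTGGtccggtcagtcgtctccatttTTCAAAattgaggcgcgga
Top2a: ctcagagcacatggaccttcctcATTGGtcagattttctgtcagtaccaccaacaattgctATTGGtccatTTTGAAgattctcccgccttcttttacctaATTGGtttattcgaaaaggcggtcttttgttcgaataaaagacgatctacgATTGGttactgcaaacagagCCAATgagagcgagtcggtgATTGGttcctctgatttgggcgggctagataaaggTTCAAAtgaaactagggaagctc

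RefSeq windows of 300 bases, from 250 before to 50 after the start, were found for 10463 of the 14560 genes tested, and either strand was searched. TTTGAA was present in 15 of 21 mitosis genes with a window (71.4%), 16 of 31 histone genes (51.6%) and 4 of 22 S phase genes (18.2%), against 14.6% of all 10463. The same letters were in 20.6% of the genes called higher in CARM1i and 12.3% of those called higher in KO. CCAAT was in 76.2% of mitosis and 90.3% of histone genes against 43.5% of all. It was not particular to the cell division lists. Among the other lists its share ran from 19% in chemokine and inflammatory genes to 94.4% in chaperones of the endoplasmic reticulum. In sterol synthesis and uptake genes the share was 94.1%. TTTCCCGC, a form of the E2F site, was in 5 of 22 S phase genes (22.7%) and 2.36% of all, and in 4.92% of genes higher in CARM1i and 1.52% of those higher in KO. These are matches of letters, not bound sites.

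Kif11 (ENSMUSG00000012443.3; mm10, chromosome 19, 37376403 to 37421859), the kinesin that separates the spindle poles, measured 1757, 1817 and 1665 in CARM1i, 978, 896 and 963 in KO and 2684, 2575 and 2566 in WT. The 3 groups did not overlap, and CARM1i lay between KO and WT. It was 1.85-fold higher in CARM1i than in KO (log2 difference 0.88 ± 0.05, limma adjusted p = 4.85e-10). Top2a (ENSMUSG00000020914.17; chromosome 11, 98992943 to 99024189), the topoisomerase that untangles replicated chromosomes, measured 8981, 8766 and 8509.8 in CARM1i, 4939, 4955 and 4672 in KO and 12881, 13252 and 12608 in WT, in the same order and without overlap, at 0.85 ± 0.03. Cyclin A, encoded by Ccna2, drives S phase and entry into mitosis, and Ccna2 read 1944, 1939 and 1808 in CARM1i against 967, 911 and 925 in KO, a 2.03-fold difference. For the proliferation marker Mki67 the CARM1i values were 4068, 4096 and 3380.2 and the KO values 2027, 1924 and 1995, with CARM1i replicate 3 the lowest of its group and still above every KO library.

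Among S phase genes, Mcm6, a subunit of the replicative helicase, measured 5421, 5315 and 5342 in CARM1i, 3115, 3051 and 3061 in KO and 6777, 6538 and 6165 in WT. Its CARM1i values spread over far less than their distance to KO, and the difference was 0.80 ± 0.04 (limma adjusted p = 6.76e-11). Uhrf1, which carries DNA methylation through replication, read 3331, 3293 and 3434 in CARM1i and 1825, 1832 and 1829 in KO, or 1.83-fold apart. Pole, the leading strand polymerase, differed by 0.82 ± 0.05 and Rrm2, the ribonucleotide reductase subunit that limits nucleotide supply, by 0.83 ± 0.05. All 4 were below WT in both groups, by -0.28, -0.25, -0.29 and -0.41 in CARM1i and by -1.08, -1.13, -1.11 and -1.24 in KO. Chaf1b, a subunit of the chromatin assembly factor that loads histones onto new DNA, did not pass against WT under the inhibitor (-0.07 ± 0.06, limma adjusted p = 0.45): it measured 1204, 1206 and 1214 in CARM1i, 812, 753 and 809 in KO and 1344, 1292 and 1168 in WT, and CARM1i and WT overlapped.

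Histone gene values are uncertain singly, since the genes are nearly identical copies that can share reads and most of their RNA lacks the poly(A) tail the libraries select. Hist1h1b, a linker histone gene (ENSMUSG00000058773.2; chromosome 13, 21779883 to 21780625), measured 3043, 3541 and 3123 in CARM1i, 1283, 1113 and 1188 in KO and 5626, 5509 and 4977 in WT. The groups did not overlap and the difference between inhibitor and deletion, 1.44 ± 0.06 (limma adjusted p = 6.76e-11), was a 2.71-fold one. Hist1h2ae, a core histone gene, had the largest gap of the list at 1.48 ± 0.10, from 153, 168 and 143 in KO to 362, 478 and 471 in CARM1i. The large histone cluster lies on chromosome 13, where 19.7% of the 624 genes tested were higher in CARM1i.

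Collagen genes followed the same direction. Of 19 tested, 12 were higher in CARM1i, against 12.1% of all genes, and 1, Col7a1 (named after its value was seen), was higher in KO, with a median of 0.29. The call of Col7a1 was lost without CARM1i replicate 1 and without each KO library in turn. Without CARM1i replicate 3 the count toward CARM1i was 15. Against WT, 16 of 19 fell in KO and 12 in CARM1i, beside 20.5% and 8.59% of all genes. Col3a1, a fibrillar collagen of stretchable tissue (ENSMUSG00000026043.18; chromosome 1, 45311538 to 45349706), measured 4599, 4540.2 and 3746 in CARM1i, 2321, 2562 and 2532 in KO and 6105, 6145 and 5658 in WT. CARM1i replicate 3 was nearest to KO, yet the groups did not overlap, and the difference was 0.79 ± 0.06 (limma adjusted p = 4.16e-08). Col6a3, of the beaded filaments around cells, differed by 0.89 ± 0.08, Col1a1, the main chain of fibroblast collagen, by 0.50 ± 0.06 and Col6a1 by 0.47 ± 0.06.

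Other matrix genes went either way, with 6 of 29 higher in CARM1i, 11 higher in KO and a median of -0.08. The shares over all genes were 12.1% and 11.5%. The count toward CARM1i was 11 without replicate 3 of that group. Aspn (ENSMUSG00000021388.14; chromosome 13, 49544443 to 49567565) measured 246, 254 and 116 in CARM1i, 71.3, 63.5 and 43.9 in KO and 359, 413 and 677 in WT. KO values were all below CARM1i values, CARM1i replicate 3 was the nearest to them, and the 3.28-fold difference stood on a log2 difference of 1.71 ± 0.26 (limma adjusted p = 0.000103). Versican, a large proteoglycan encoded by Vcan, was higher in CARM1i by 0.34 ± 0.03, while Timp2, an inhibitor of metalloproteinases, was higher in KO by a difference of -0.37 ± 0.03.

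Postn, which encodes the matrix protein periostin, separated KO from both other groups (ENSMUSG00000027750.16; chromosome 3, 54361109 to 54391037). It measured 5679, 6012 and 5330.5 in CARM1i, 10222, 9545 and 9528 in KO and 5136, 5173 and 6408 in WT. CARM1i and WT overlapped and every KO library stood above both, so that KO exceeded CARM1i by a log2 difference of -0.78 ± 0.06 (limma adjusted p = 7.69e-08). Mmp3, stromelysin, which degrades matrix proteins and is a classic AP-1 target (ENSMUSG00000043613.8; chromosome 9, 7445822 to 7455975), measured 2621, 2647 and 4053 in CARM1i, 6583, 6479.9 and 6962 in KO and 3097, 2865 and 3109 in WT. The KO libraries were again the highest, at -1.13 ± 0.11, and CARM1i replicate 3 stood above the other CARM1i libraries and above WT. Over all 3 libraries CARM1i and WT differed by 0.01 ± 0.11, and without CARM1i replicate 3 the value was -0.20 (limma adjusted p = 0.00157). Mmp10, a related metalloproteinase, read 1014, 1015 and 1448 in CARM1i, 2234, 2363 and 2349 in KO and 798, 652 and 859.7 in WT, with CARM1i between the other groups.

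The Mmp3 promoter is shown because AP-1 letters were more frequent on the KO side: TGANTCA was in 9.03% of genes called higher in KO, 5.14% of those called higher in CARM1i and 6.49% of all. The window is chr9:7445572-7445821 on the plus strand (GRCm38.p6), printed as above, with capitals marking the single TGANTCA match, 46 bases before the start.
Mmp3: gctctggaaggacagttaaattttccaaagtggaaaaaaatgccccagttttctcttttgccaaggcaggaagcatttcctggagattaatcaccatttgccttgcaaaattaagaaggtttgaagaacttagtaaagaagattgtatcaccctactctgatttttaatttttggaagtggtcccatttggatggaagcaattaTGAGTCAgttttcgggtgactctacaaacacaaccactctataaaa

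Interferon-stimulated genes, which encode antiviral proteins, were higher after deletion. Of 32 tested, 28 were higher in KO than in CARM1i, with a median difference of -0.26, against 11.5% of all genes. The 4 that did not pass were Eif2ak2, Rtp4, Ddx58 and Irf9, named after their values were seen. Both groups lay above WT: 31 of 32 rose in KO and 26 in CARM1i, beside 21.4% and 10.5% of all genes, with medians of 0.51 and 0.27. Without the intensity trend in the limma fit 18 of the 32 were called higher in KO, and without CARM1i replicate 3 there were 30.

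Ifit2, an antiviral RNA-binding protein gene (ENSMUSG00000045932.12; chromosome 19, 34550694 to 34576419), measured 10020.4, 9259.5 and 12933 in CARM1i, 18188, 20861 and 18382 in KO and 7056, 7385 and 7097 in WT. The groups did not overlap, and CARM1i replicate 3 was the CARM1i library nearest to KO. The difference was -0.85 ± 0.08 (limma adjusted p = 5.15e-07). Herc6, an E3 ligase that attaches ISG15, differed by -0.61 ± 0.06, from 779.5, 783 and 807 in CARM1i to 1242, 1281 and 1102 in KO. Ifit3b, a near copy of Ifit3 with which it can share reads, differed by -0.59 ± 0.08 and Ifit1 by -0.41 ± 0.06.

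The Ifit3b promoter is shown as an example of the interferon-stimulated response element, searched on either strand as GAAA, any 2 bases and GAAA. That motif was in 13 of 23 interferon genes with a window (56.5%), in 7.51% of all genes called higher in KO, in 3.04% of those called higher in CARM1i and in 3.73% of all genes. The window is chr19:34607707-34607956 on the plus strand (GRCm38.p6), and capitals mark its 2 matches, 188 and 154 bases before the start, both read as the complement.
Ifit3b: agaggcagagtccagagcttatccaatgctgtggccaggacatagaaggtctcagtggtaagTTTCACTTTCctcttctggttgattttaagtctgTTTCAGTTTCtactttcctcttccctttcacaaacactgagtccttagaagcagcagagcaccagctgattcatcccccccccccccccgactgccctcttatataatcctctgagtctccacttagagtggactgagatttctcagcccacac

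Antigen presentation genes, of which many respond to interferon, had 12 of 14 members higher in KO, against 11.5% of all genes, with a median of -0.34. Against WT 12 rose in KO and 9 in CARM1i, beside 21.4% and 10.5% of all genes. The exceptions between CARM1i and KO were Cd74 and H2-T23, named after their values were seen. H2-K1, a class I histocompatibility gene whose relatives can share its reads, measured 7379, 7053 and 7693 in CARM1i, 9371, 9469 and 8993 in KO and 5893, 6153 and 6276 in WT, with no overlap and a difference of -0.33 ± 0.04 (limma adjusted p = 2.88e-06). Tapbp, which encodes the chaperone that loads peptides, differed by -0.35 ± 0.04. For the peptide transporter Tap2 and the immunoproteasome subunit Psmb10 the differences were -0.45 ± 0.06 and -0.40 ± 0.05. Tap2 did not pass against WT in CARM1i, at 0.14 ± 0.06 (limma adjusted p = 0.0948), while in KO it rose by 0.59 ± 0.06.

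Of 28 chemokine and inflammatory genes 13 were higher in KO, against 11.5% of all genes. The 4 higher in CARM1i, or 7 without CARM1i replicate 3, stand beside 12.1% of all genes, so the main count is near the background. Ccl8, a monocyte chemokine, measured 1033, 1135 and 887 in CARM1i, 1835, 1914 and 1792 in KO and 393, 463 and 513 in WT. All KO libraries were above all CARM1i libraries, which were above all WT libraries, and the difference was -0.87 ± 0.09 (limma adjusted p = 9.77e-07). Il33, an alarmin cytokine gene, differed by -0.56 ± 0.08 and Cxcl16, a membrane-bound chemokine gene, by -0.38 ± 0.05. Csf1, the growth factor of macrophages, read 27309.5, 27012 and 31045 in CARM1i, 39821, 38000.2 and 38968 in KO and 29429, 29244 and 29837 in WT, so CARM1i overlapped WT and KO stood alone, at -0.45 ± 0.04. Tnfaip3, a feedback inhibitor of NF-kB, separated in another way. It measured 789, 859.6 and 874 in CARM1i, 1128, 1097 and 1078 in KO and 986, 1092 and 1160.1 in WT, with KO and WT overlapping and every CARM1i library below both.

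Lysosome and autophagy genes had 25 of 31 members higher in KO, against 11.5% of all genes, with a median of -0.29. In both groups nearly the whole list was above WT: 28 rose in KO (median 0.66) and 27 in CARM1i (median 0.29), beside 21.4% and 10.5% of all genes. Ctsd, a lysosomal protease gene (ENSMUSG00000007891.16; chromosome 7, 142375911 to 142388038), measured 14897, 15116 and 15398 in CARM1i, 20763, 20584 and 20336 in KO and 12029, 11595 and 12164 in WT. The groups did not overlap and CARM1i lay between WT and KO, with a difference between inhibitor and deletion of -0.44 ± 0.03 (limma adjusted p = 6.14e-09). Gpnmb, a lysosomal glycoprotein gene, read 14546, 14816 and 17096 in CARM1i and 22971, 24798 and 24386 in KO, a 1.56-fold excess in KO. The alpha-galactosidase gene Gla differed by -0.41 ± 0.03, and its CARM1i libraries also lay between WT and KO without overlap.

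Targets of the oxidative stress factor NRF2 had 9 of 22 members higher in KO and 2 higher in CARM1i, beside 11.5% and 12.1% of all genes. The count toward KO ran from 6, without CARM1i replicate 1, CARM1i replicate 2 or KO replicate 2, to 12, without CARM1i replicate 3. The count toward CARM1i was 1 without CARM1i replicate 2 or KO replicate 2. Fth1, the heavy chain of the iron store ferritin, measured 27107, 27174 and 25321 in CARM1i, 36055, 33559.6 and 36022 in KO and 19396, 18887 and 19871 in WT, in the order WT, CARM1i, KO with no overlap, and differed by -0.41 ± 0.04 (limma adjusted p = 1.95e-07). Hmox1, which breaks down heme, differed by -0.38 ± 0.04. Ephx1, an epoxide hydrolase gene, read 3086, 3049 and 3107 in CARM1i, 3954, 3932 and 3943 in KO and 2896, 2965 and 3134 in WT, so its CARM1i libraries overlapped WT.

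Targets of the tumour suppressor p53 had 16 of 24 members higher in KO, against 11.5% of all genes, 2 higher in CARM1i and a median of -0.21. Against WT 17 rose and 2 fell in KO, beside 21.4% and 20.5% of all genes, with a median of 0.21. In CARM1i 3 rose and 4 fell, beside 10.5% and 8.59%, with a median of -0.02, and the 3 are near the background. Cdkn1a, the p21 inhibitor of cyclin-dependent kinases (ENSMUSG00000023067.13; chromosome 17, 29090976 to 29100727), measured 3108, 2983 and 3428 in CARM1i, 4156, 4165 and 4108 in KO and 3394, 3124 and 3258 in WT. CARM1i and WT overlapped, all KO libraries were higher, and the difference was -0.39 ± 0.05 (limma adjusted p = 5.78e-06). Mdm2, the ligase that removes p53, read 12174, 11749 and 13928 in CARM1i, 16221, 17787 and 16777 in KO and 10844, 10925 and 10635 in WT, between the other groups under the inhibitor, at -0.43 ± 0.05. Ccng1, encoding cyclin G, differed by -0.46 ± 0.04 and Trp53inp1, an autophagy and cell death cofactor, by -0.49 ± 0.04. The 2 members higher in CARM1i, Ckap2 and Sesn1, were named after their values were seen. Ckap2 encodes a spindle protein, at 0.16, and Sesn1 a stress sensor, at 0.37. That count was 1 without CARM1i replicate 2 or KO replicate 1, and limma called 0 without CARM1i replicate 1 or KO replicate 3.

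Genes of sterol synthesis and uptake were a contrasting case, since 23 of 25 rose against WT in each group and the difference between the groups was small. Over all genes 21.4% rose in KO and 10.5% in CARM1i. The median was 0.50 above WT in KO and 0.64 in CARM1i. The median CARM1i minus KO was 0.08, with 7 of 25 called higher in CARM1i, beside 12.1% of all genes. Hmgcs1, an early enzyme of the mevalonate pathway (ENSMUSG00000093930.2; chromosome 13, 119690379 to 119708260), measured 9767, 9392 and 8649 in CARM1i, 7738, 7773 and 7658 in KO and 5377, 5058 and 5872 in WT. Every CARM1i library was above every KO library and both groups were above WT, with 0.26 ± 0.05 between them (limma adjusted p = 0.000563). The sterol sensor gene Insig1 differed by 0.26 ± 0.05 and the sterol carrier gene Stard4 by 0.19 ± 0.04. Without CARM1i replicate 3 the count was 10. Fatty acid synthesis genes had 3 of 17 higher in CARM1i (5 without CARM1i replicate 3) and 1 higher in KO, near the shares of all genes. The 1 higher in KO was Insig2, a sterol sensor gene, whose call was lost under edgeR and DESeq2 and without CARM1i replicate 1, CARM1i replicate 2, KO replicate 1, KO replicate 3, WT replicate 1 or WT replicate 2, while without CARM1i replicate 3 the count was 2. Acsl3, which activates fatty acids, was higher in CARM1i at 0.28 ± 0.05, and it did not pass in KO against WT (0.11 ± 0.05, limma adjusted p = 0.0666).

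Abca1, the transporter that exports cholesterol (ENSMUSG00000015243.4; chromosome 4, 53030787 to 53159895), had the largest difference in the sterol export list. Of that list 3 of 11 were higher in CARM1i and 3 higher in KO, beside 12.1% and 11.5% of all genes. Abca1 measured 1134, 1078 and 800.4 in CARM1i, 546, 398 and 512 in KO and 1083, 1108 and 1119 in WT. CARM1i replicate 3 was the lowest of its group and below all WT libraries, the other CARM1i libraries were at the WT level, and all KO libraries were below. The difference of 1.04 ± 0.11 was a 2.06-fold one (limma adjusted p = 2.11e-06). Npc1 and Npc2, which move cholesterol out of the lysosome, were higher in KO by differences of -0.25 ± 0.04 and -0.17 ± 0.03, as was the small GTPase gene Arl4c at -0.41 ± 0.05.

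Chaperones of the endoplasmic reticulum had 8 of 20 members higher in CARM1i and 2 higher in KO, with a median of 0.08. Over all genes the shares were 12.1% and 11.5%, so the 2 are near the background. The count toward CARM1i was 5 without KO replicate 3. The count toward KO was 1 when KO replicate 2 or 3, WT replicate 2 or any CARM1i library was left out, and limma called 0 without KO replicate 1. Against WT, 9 fell and 2 rose in KO, beside 20.5% and 21.4% of all genes, so the 2 are below the background. Pdia6, a disulfide isomerase gene, measured 6682, 6360.5 and 6454 in CARM1i, 5773, 5515 and 5412 in KO and 6998, 6836 and 6831 in WT, with all KO libraries lowest, and differed by 0.22 ± 0.03 (limma adjusted p = 7.13e-05). Hsp90b1, the chaperone GRP94, differed by 0.15 ± 0.03, Manf by 0.19 ± 0.03 and Herpud1 by 0.24 ± 0.05. Ribosomal protein genes had 11 of 32 higher in CARM1i, beside 12.1% of all genes, with a median of 0.07. That count was 3 without KO replicate 2, 4 without KO replicate 3, 5 without CARM1i replicate 3 and 7 without CARM1i replicate 2. Rpl3, of the large subunit, differed by 0.20 ± 0.03.

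Of 22 oxidative phosphorylation genes none passed in limma, 2 had an unadjusted p under 0.05, and edgeR and DESeq2 on the recovered reads called 0 each. A single gene was called higher in KO without CARM1i replicate 1, CARM1i replicate 3 or WT replicate 3, with a minimum mean of 50, and in a fit of the CARM1i and KO libraries alone. Their differences ran from -0.11 to 0.05, and the 95% intervals of the single genes in the fit of all libraries lay within -0.19 and 0.12.

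**Figure D4:**
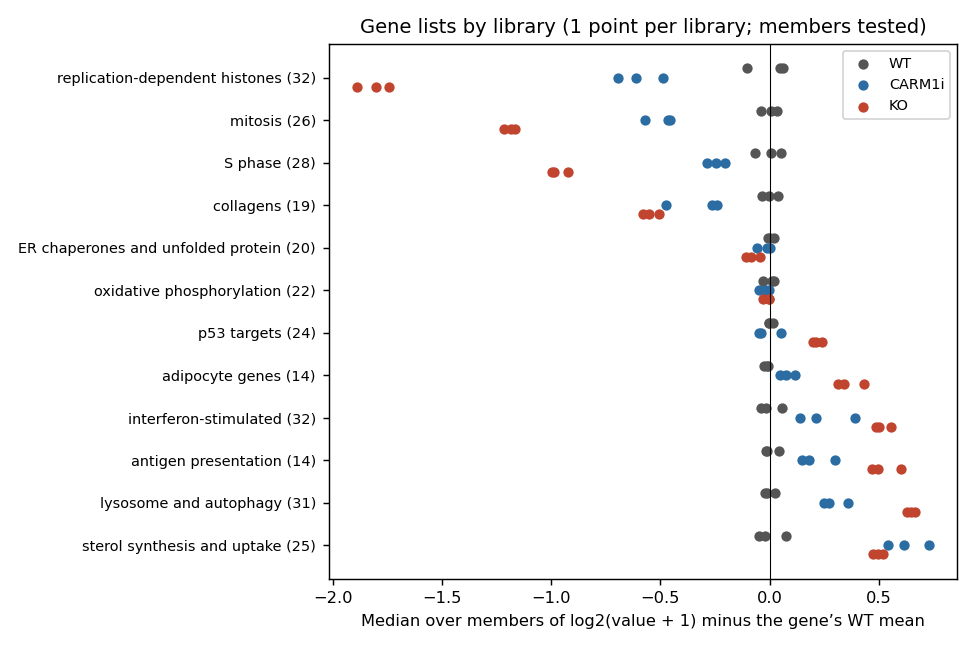
For 12 gene lists, each point is 1 library: the median over the list's tested members of log2(value + 1) minus the gene's WT mean, with WT in grey, CARM1i in blue and KO in red. CARM1i libraries lie between WT and KO for the cell cycle, interferon and lysosome lists, near WT for p53 targets, and above KO for sterol synthesis, while CARM1i and KO overlap for oxidative phosphorylation.

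Genes of the epidermal differentiation cluster, which form the outer layer of skin, had a median of -0.03, and 6 of 10 tested did not pass. The 3 higher in KO and 1 higher in CARM1i stand beside 11.5% and 12.1% of all genes, and Ivl, Crct1 and S100a8 were the 3. Ivl, encoding involucrin (ENSMUSG00000049128.7; chromosome 3, 92570902 to 92573735), measured 1560.0, 1558 and 1634 in CARM1i, 2958, 3128 and 3177 in KO and 792, 773 and 820.1 in WT. The replicates were close and the groups did not overlap, and KO was 1.95-fold above CARM1i (log2 difference -0.96 ± 0.04, limma adjusted p = 8.51e-11). Crct1, a neighbour in the cluster (ENSMUSG00000027913.5; chromosome 3, 93014205 to 93015687), measured 197, 209.7 and 233 in CARM1i, 582, 534 and 561 in KO and 83.5, 78.3 and 77.0 in WT, or 2.62-fold more in KO than in CARM1i. S100a8, a calcium-binding gene of neutrophils and stressed epithelium, differed by -1.07 ± 0.13, and S100a10 went the other way at 0.22 ± 0.03. The epithelial marker Krt18 also moved with KO, at 91.9, 118 and 126 against 41.5, 32.4 and 43.8 in CARM1i and 23.3, 48.0 and 42.8 in WT, and its part in these results was not tested; Epcam, Krt5 and Krt14 were not among the genes analysed here.

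Acod1, an enzyme gene of activated macrophages, had the largest named difference toward KO (ENSMUSG00000022126.6; chromosome 14, 103046977 to 103056573). It measured 53.7, 38.1 and 114 in CARM1i, 206, 205 and 209.9 in KO and 33.6, 35.2 and 54.5 in WT. The KO libraries were close together, CARM1i replicate 3 was well above the other CARM1i libraries, and the difference was -1.73 ± 0.29 (limma adjusted p = 0.000208). CARM1i and WT overlapped and did not pass the test, at 0.61 ± 0.29 (limma adjusted p = 0.158). Megf10, a receptor for engulfing dead cells, read 231, 255 and 339.8 in CARM1i and 622, 729.8 and 698 in KO, a difference of -1.33 ± 0.12. The macrophage marker sums given above overlapped between CARM1i and KO. Acta1 read 117, 91.5 and 174 in CARM1i and 205, 247 and 251 in KO, and the muscle regulators Myod1 and Myog were not among the genes analysed here.

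Growth factor receptor and IGF genes had 7 of 23 higher in CARM1i and 4 higher in KO, beside 12.1% and 11.5% of all genes. Pdgfra, the receptor that marks and drives mesenchymal cells (ENSMUSG00000029231.15; chromosome 5, 75152292 to 75198215), measured 37756, 37015 and 33047 in CARM1i, 25125, 23199 and 23649.9 in KO and 37849, 38074 and 39562 in WT. CARM1i replicates 1 and 2 were just under WT, replicate 3 was lower, and all KO libraries were lower still, at 0.58 ± 0.04 (limma adjusted p = 2.48e-08). Ddr2, a collagen receptor, differed by 0.39 ± 0.04. Fgfr1, a fibroblast growth factor receptor, was higher in KO by a difference of -0.31 ± 0.04 and Igfbp3, which binds IGF, by one of -0.74 ± 0.09. In the Wnt and Notch list 2 of 15 were higher in each group, near the 12.1% and 11.5% of all genes. Toward CARM1i the count was 4 without its replicate 3. It was 1 without CARM1i replicate 1, CARM1i replicate 2, KO replicate 2 or KO replicate 3. Toward KO it was 1 without CARM1i replicate 2. Dkk2 of that list measured 520.4, 689 and 461 in CARM1i, 145, 213 and 224 in KO and 948, 960.2 and 759 in WT. The groups did not overlap, with KO lowest and WT highest (1.52 ± 0.15).

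Estrogen receptor targets bear on the 4-OHT given to the KO cells, since 4-OHT also binds the estrogen receptor. Of 15 genes tested, 4 were higher in KO, beside 11.5% of all genes: Krt18, Ctsd, Efemp1 and Ccnd1. Against WT 7 of the 15 rose and 0 fell in KO, beside 21.4% and 20.5% of all genes. In CARM1i 3 rose and 1 fell, beside 10.5% and 8.59%, and the 1 is near the background. Ccnd1, cyclin D, read 10044, 9469 and 13049 in CARM1i and 13324, 13722 and 13811 in KO, so that CARM1i replicate 3 lay near KO, and its difference of -0.34 ± 0.07 lost its call under at least 1 alternative. Efemp1, a matrix glycoprotein gene, differed by -0.42 ± 0.06. The receptor gene Esr1, named after its value was seen, differed by 0.26 ± 0.19, which limma did not call. The part of 4-OHT in these values cannot be told apart from that of the deletion.

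Of 22 partners and substrates of CARM1, 1 was higher in CARM1i and 3 higher in KO, 4 calls that are near the 23.6% of all genes called. Toward KO the count was 1 without CARM1i replicate 1 or KO replicate 2, and without KO replicate 3 limma called 0. Toward CARM1i it was 2 without CARM1i replicate 1. Smarcc1, encoding the remodeller subunit BAF155, a known substrate, measured 5706, 5673 and 5783 in CARM1i, 5017, 5099 and 4878 in KO and 5555, 5753 and 5575 in WT, with KO below both other groups, and differed by 0.19 ± 0.03 (limma adjusted p = 0.000154). Pabpc1, the poly(A)-binding protein, Kmt2d, a histone methyltransferase, and Runx1, a blood transcription factor, were higher in KO at -0.15, -0.20 and -0.17, and each lost its call under at least 1 alternative. Among 26 acetyltransferase, deacetylase and reader genes 5 were higher in CARM1i, beside 12.1% of all genes. Toward KO, beside 11.5% of all genes, 1 was called, Sirt2 at -0.25 ± 0.04, or 2 genes without CARM1i replicate 2. Hat1, which acetylates newly made histones, differed by 0.37 ± 0.06, Hdac7, a class IIa deacetylase gene, by 0.33 ± 0.05 and Brd3, a reader of acetylated histones, by 0.23 ± 0.04.

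The counts of the other lists are read against 12.1% of all genes higher in CARM1i and 11.5% higher in KO, and several are near these shares. Counts, given as higher in CARM1i and then higher in KO, were 6 and 7 of 25 for contractile and TGF-beta genes, 5 and 1 of 20 for ribosome biogenesis and 5 and 4 of 26 for ATF4 targets. They were 2 and 6 of 22 for glycolysis and hypoxia, 5 and 6 of 22 for immediate early and CREB targets and 5 and 3 of 17 for imprinted genes. They were 2 and 2 of 22 for Hox and positional genes and 3 and 4 of 24 for integrins and cadherins, and 6 of 14 adipocyte genes were higher in KO. Without CARM1i replicate 3 the count toward CARM1i was 8 for integrins and cadherins, and that toward KO was 5 for ribosome biogenesis. Without KO replicate 1 the count toward KO was 3 for contractile and TGF-beta genes, and that toward CARM1i was 4 for glycolysis and hypoxia. Toward CARM1i, immediate early genes numbered 2 without CARM1i replicate 1, KO replicate 1 or KO replicate 3, and 3 without CARM1i replicate 2 or WT replicate 2. Ribosome biogenesis genes toward KO numbered 2 without WT replicate 3. ATF4 targets numbered 2 without KO replicate 2 and 3 without CARM1i replicate 2, and imprinted genes 2 without CARM1i replicate 1. Hox and positional genes numbered 1 toward CARM1i without KO replicate 3, and limma called 0 without CARM1i replicate 1, CARM1i replicate 2 or KO replicate 2. In these lists, Plin4, a lipid droplet protein gene, was higher in KO at -0.83 ± 0.12 and the BMP targets Id1 and Id3 were higher in CARM1i at 0.29 ± 0.04 and 0.34 ± 0.04. Txnip, an inhibitor of glucose uptake, fell in both groups against WT (-1.17 ± 0.05 in KO, -0.89 ± 0.05 in CARM1i), and CARM1i exceeded KO by 0.28 ± 0.05. Hoxb4, a homeobox gene, measured 448, 411 and 414 in CARM1i, 554, 586 and 586 in KO and 432, 409 and 427 in WT, so that CARM1i overlapped WT and KO stood above.

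The position of CARM1i relative to WT divides the genes of the comparison further. Patterns were counted among genes with a mean of at least 100, under the exclusions used for named genes. With CARM1i within 0.1 (log2) of WT and every KO library outside both groups, KO was above in 458 and below in 531. The reverse pattern, KO within 0.1 of WT and every CARM1i library outside both, was met by 39 genes with CARM1i above and 33 below. Both patterns require a call between CARM1i and KO and a call against WT, and share the WT libraries. Against WT, 41.9% of all genes were called in KO and 19.1% in CARM1i. The median absolute difference from WT was 0.18 in KO and 0.11 in CARM1i. A fixed limit of 0.1 is easier to meet for the group with the smaller differences. The counts alone therefore do not separate loss of protein from loss of activity. From each kind and direction 6 genes were named by the smaller of their 2 differences.

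On the deletion side, Npnt, an integrin ligand of basement membranes (ENSMUSG00000040998.18; chromosome 3, 132881745 to 132950291), measured 148, 162 and 151 in CARM1i, 47.5, 86.7 and 63.9 in KO and 152, 129 and 151 in WT. CARM1i and WT overlapped, and KO was below, with 1.24 ± 0.18 between inhibitor and deletion (limma adjusted p = 4.55e-05). Mex3b, an RNA-binding protein gene, differed by 0.62 ± 0.08. The others with KO below were Chaf1b, Pcyox1l, Cdh24 and Cacna1a. With KO above, beside Postn and Mmp3, were Ccn3, a matricellular protein gene, at -0.66 ± 0.12, the transporter gene Slc22a23 at -0.62 ± 0.08, and Sytl1 and Cyp2j9. The calls of Cyp2j9 and Cacna1a were lost under at least 1 alternative.

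On the inhibitor side, Ahnak2, a large scaffold protein gene (ENSMUSG00000072812.4; chromosome 12, 112772194 to 112802657), measured 3533, 3562 and 3100.2 in CARM1i, 4856, 5159 and 4739.9 in KO and 4765, 4661 and 4866 in WT. KO and WT overlapped while every CARM1i library was below both, and the difference was -0.54 ± 0.05 (limma adjusted p = 1.86e-07), a 1.45-fold one. Fbn1, fibrillin, the core of elastic microfibrils, read 4998, 5126 and 4638 in CARM1i, 6345, 5598 and 6184 in KO and 6239.5, 5771 and 6207 in WT, at -0.30 ± 0.05. Inhba, the activin subunit gene, differed by -0.31 ± 0.05, Tnfaip3 by -0.39 ± 0.06, the coagulation factor gene F8 by -0.44 ± 0.10 and the long non-coding RNA Lncenc1 by -0.37 ± 0.10, whose call was lost without CARM1i replicate 1 and without KO replicate 3. With CARM1i above, Bmper, a modulator of BMP signalling, measured 4898, 4777 and 4404 in CARM1i, 4102, 3961 and 3996 in KO and 3860.5, 3738 and 4025 in WT, so CARM1i exceeded both other groups, by 0.22 ± 0.04 over KO. Add2, Itga2b, Pcca, Nrn1 and Ucp2, the other genes named there, lost their call under at least 1 alternative.

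CARM1i and KO libraries did not overlap in 36.9% of all genes tested. Opposite shifts from WT were counted among genes with a mean of at least 100, under the exclusions used for named genes. Those past the threshold in all 3 contrasts, with no overlap among the 3 groups, numbered 12. In 5 CARM1i was above WT and KO below, and in 7 the other way round. Frem1, a basement membrane protein gene of developing skin (ENSMUSG00000059049.14; chromosome 4, 82897920 to 83052339), measured 3365, 3240.3 and 2977 in CARM1i, 2172, 2009 and 1888 in KO and 2597, 2576 and 2791 in WT. Each group was separate, with KO at -0.39 ± 0.05 and CARM1i at 0.27 ± 0.05 against WT, and 0.66 ± 0.05 lay between them (limma adjusted p = 6.21e-08). Ltbp1, which tethers latent TGF-beta to the matrix, read 45974, 46339.7 and 46531 in CARM1i, 40069, 38656 and 39778 in KO and 42896, 42547 and 42738 in WT, a smaller gap of 0.23 ± 0.03 with close replicates. Cd55, a guard against complement, differed by 0.37 ± 0.04, the polarity protein gene Lin7a by 0.44 ± 0.06 and the Cdc42 exchange factor gene Fgd1 by 0.32 ± 0.05.

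In the other direction, Ghr, the growth hormone receptor gene (ENSMUSG00000055737.12; chromosome 15, 3317760 to 3583492), measured 5232, 5382 and 5354 in CARM1i, 7000.1, 6938 and 6900.5 in KO and 5905, 5858 and 5843 in WT. Replicates were close, KO was above and CARM1i below WT in every library, and the difference was -0.38 ± 0.03 (limma adjusted p = 2.74e-08). Sema3e, a guidance cue of vessels and axons, differed by -0.48 ± 0.05, the serotonin receptor gene Htr2a by -0.45 ± 0.06, Klhl42, an adaptor of a ubiquitin ligase, by -0.33 ± 0.05, the p53-responsive receptor gene Eda2r by -0.30 ± 0.04, the succinate dehydrogenase assembly gene Sdhaf2 by -0.25 ± 0.04 and Cited2, which binds CBP and p300, by -0.22 ± 0.04. All 12 kept the call between CARM1i and KO under every alternative, but only Frem1, Ltbp1 and Ghr kept both calls against WT under all of them. The plot of 12 genes by library shows these patterns side by side.

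**Figure D5:**
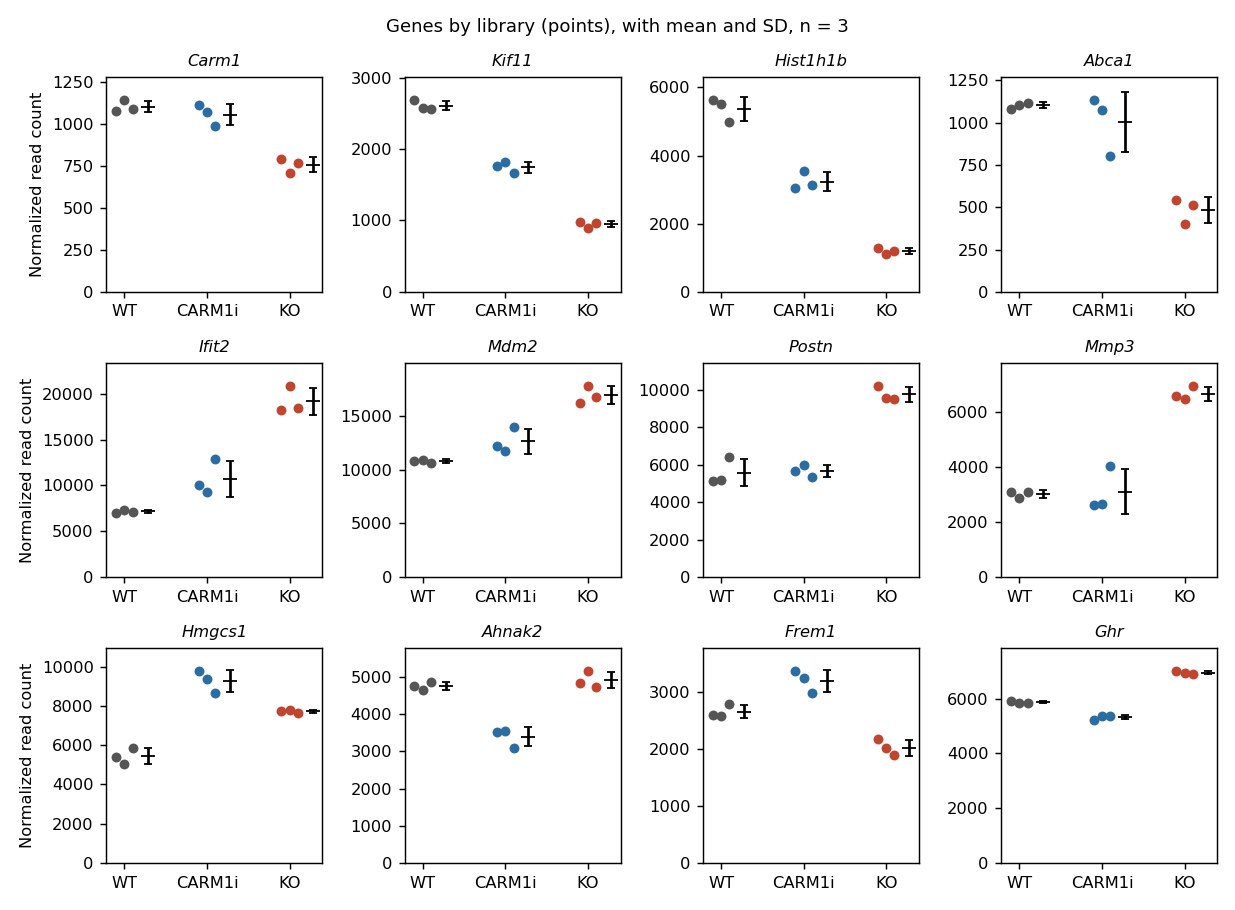
Normalized read counts of 12 genes, each panel with its own vertical axis from 0; points are libraries (WT grey, CARM1i blue, KO red) and the black mark is the mean with SD, n = 3. Kif11, Hist1h1b, Ifit2 and Mdm2 show CARM1i between WT and KO, Carm1, Abca1, Postn and Mmp3 show KO away from both other groups (with CARM1i replicate 3 nearer to KO in Abca1 and Mmp3), Ahnak2 shows CARM1i alone away, Hmgcs1 shows both above WT, and Frem1 and Ghr show the groups on opposite sides.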

How the data were processed

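Poly(A) RNA of 9 samples of mouse embryonic fibroblasts, 3 each labelled CARM1i, KO and WT, was sequenced from stranded libraries, per the labels' protocols. TopHat2 2.0.10, HTSeq 0.6.0 and DESeq 1.18.0 are listed, with the build mm10, in the submitters' processing notes. Which annotation release and strand setting they were run with is not given in the sources used here. A single table was deposited by the authors, of 16428 genes by 9 libraries, holding a normalized signal, read counts divided by a size factor of each library. Dividing each column by its smallest step gave whole reads for 100% of values (tolerance 1e-06), which set the depths at 28657018 to 35842771 reads. Every gene in the table reached at least 10 reads in at least 1 library.

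Symbols and mm10 positions came from GENCODE M21 by Ensembl ID without version (16413 matched, 15 not), and promoter windows from RefSeq (GRCm38.p6). The values + 1 were put on the log2 scale, genes with a mean under 10 were left out, and limma 3.58.1 (R 4.3.3, intensity trend) fitted the 3 groups together with 6 residual degrees of freedom. Adjusted p-values are Benjamini-Hochberg over 14560 genes with a threshold of 0.05, two-sided. Count models on the recovered reads (DESeq2 1.42.0 and edgeR 4.0.16), other pseudocounts, filters and scalings, a replicate block and each library left out were alternatives. Tested on simulated counts of 14583 genes for this comparison, the fit recovered 72 of 98 genes changed 1.5-fold and 85 of 99 changed 2-fold. Of its 165 calls 8 were on unchanged genes. In that simulation few genes were changed, in CARM1i alone, and KO and WT were drawn from the same means. Its shares therefore need not hold for the real comparison, in which 23.6% of genes were called.

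The members and gene lists were chosen with earlier results of these data known. Named genes were Carm1, the 12 largest differences each way among called genes with a mean of at least 100 and no overlap, the 4 list members with the smallest adjusted p (fewer where fewer passed), up to 8 genes each way with opposite changes from WT, and up to 6 each way changed against WT in only one of CARM1i and KO with the other within 0.1 of WT. Predicted gene models, pseudogenes, Xist and Y-linked genes were left out of that rule, and a few genes that meet it are not reported here. Deviations of same-numbered libraries from their group means had correlations of -0.087 to 0.0268. The labels give no pairing, and the main fit treated replicate numbers as names only. Such correlations cannot show whether libraries shared a culture or a day.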

Additional observations from a re-analysis of the deposited data

Results flagged for a closer look

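The 12 genes listed here were picked for having the CARM1i and KO libraries on opposite sides of WT, without overlap. A limma call between CARM1i and KO, and of each group against WT, was also a condition of that choice. Passing the direct test is therefore no separate evidence for these genes. With CARM1i above, the log2 differences CARM1i minus KO were 0.66 for Frem1, 0.44 for Lin7a, 0.37 for Cd55, 0.32 for Fgd1 and 0.23 for Ltbp1. With KO above, they were -0.48 for Sema3e, -0.45 for Htr2a, -0.38 for Ghr, -0.33 for Klhl42, -0.30 for Eda2r, -0.25 for Sdhaf2 and -0.22 for Cited2. The calls of CARM1i against WT in Lin7a, Fgd1, Eda2r and Sdhaf2 were near the threshold, with limma adjusted p-values of 0.0474, 0.0484, 0.0483 and 0.0446. The call of KO against WT was lost in 12 of 19 alternatives for Cited2 and in 8 for Klhl42. For Cited2 the call of CARM1i against WT was also lost in 8. Of the 12 genes, only Frem1, Ltbp1 and Ghr kept both calls against WT under every alternative.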

How the results depend on the processing

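The count of 3436 genes between CARM1i and KO ranged from 2490 to 3682 over 20 alternatives. edgeR called 3471 and DESeq2 3172, and limma without the intensity trend called 2490. Leaving out 1 library gave 2600 to 3682. With the replicate block, where no pairing is given by the labels, 3156 genes were called, 1619 higher and 1537 lower in CARM1i. Of the 3436 genes, 68.71% to 100% were called again under each alternative. The 173 named genes tested for stability, Carm1 apart, were picked from genes called in the main fit, many by size or smallest adjusted p. Their stability is therefore not that of all calls. Of the 173, 151 kept their call in every alternative, 22 lost it in at least 1 and 0 reversed. All 26 mitosis and 32 histone genes kept theirs in all 20. Calls were fewer among weakly expressed genes, and the part of depth was not tested: 1.96% of genes with a mean of 10 to 100 were called higher in CARM1i against 17% of those of at least 1000. Intervals cover the spread of 3 libraries per group only.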

Other observations

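Called genes were not spread evenly over gene classes. Of 12468 protein-coding genes 13.6% were higher in CARM1i and 13% higher in KO, whereas of 918 long non-coding RNA genes 3.38% and 3.59% were. By chromosome, 17.2% of the 727 genes tested on chromosome 10 were higher in CARM1i, and 16.2% of the 468 on chromosome 19 were higher in KO. Chromosome X held 14.6% higher in CARM1i and 9.27% higher in KO among 453 genes.

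Neural and glial markers, 4 of 7 tested, summed to 5995 to 6702 in CARM1i, 6032 to 6363 in KO and 7694 to 8024 in WT. Singly, 2 of the 4 were called higher in CARM1i than in KO and 0 lower, beside 12.1% and 11.5% of all genes. The cartilage marker tested summed to 487.9 to 586.7 in CARM1i and 659.3 to 805 in KO. The CLEAR-type E-box of lysosomal genes was in 1.52% of genes higher in KO, 0.651% of those higher in CARM1i and 0.793% of all, and in 0 of 25 lysosome genes with a window. TGACGTCA, the CRE, was in 3.11%, 3.55% and 3.61%.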
